A study of Rattus norvegicus with 17 samples.

Results

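Among the 7633 regions of the rat genome at which a Brg1 peak was called in at least 1 stage of oligodendrocyte differentiation, 1698 carried Brg1 in immature (iOL) and mature oligodendrocytes (mOL) but not in oligodendrocyte precursor cells (OPC), and also carried Olig2. Regions were made by joining Brg1 peaks of the 3 stages that overlapped or touched. A region was a member when it overlapped, by at least 1 bp, a Brg1 iOL peak, a Brg1 mOL peak, no Brg1 OPC peak and an Olig2 peak of any stage. The members were thus chosen by the Brg1 calls and the presence of Olig2 at some stage, which are given as a description. The stages at which Olig2 was called among them are part of the same readout and are described without a test.

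The peaks came from 17 chromatin immunoprecipitation sequencing (ChIP-seq) libraries of wild-type primary cells, taken from the cortex of Sprague-Dawley rat pups at postnatal day 2. OPC carried the label of mitogen treatment, with PDGF-AA at 10 ng/ml and bFGF at 20 ng/ml in the growth medium, and iOL and mOL carried the label of T3 treatment, with T3 at 15 nM and ciliary neurotrophic factor at 10 ng/ml in the differentiation medium. Brg1, Olig2 and the histone marks H3K27Ac, H3K4me3 and H3K9me3 were mapped at all 3 stages and RNA polymerase II (RNAPII) in OPC and iOL, with 1 library for each target and stage. How long iOL and mOL were cultured is not stated in the labels, and the cell types could not be checked against marker genes, since peaks were not assigned to genes.

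With 1 library per target and stage no difference between stages had a replicate check, and no p-value is given. Shares of regions carry exact Clopper-Pearson 95% intervals, and differences between classes of regions carry Newcombe 95% intervals. Both cover the counting of regions only. The lists differed in length, with 452 Brg1 peaks in OPC, against 5465 and 4378 in iOL and mOL. The Olig2 list of mOL had 2759 peaks, where those of OPC and iOL had 21901 and 25787. Sequencing depth is unknown, so a region without a called peak is one where none was called, not one where the protein or mark is absent.

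Brg1, encoded by Smarca4, is an ATPase of the BAF chromatin remodelling complex, which moves or evicts nucleosomes and has no strong sequence preference of its own. Olig2 is a basic helix-loop-helix transcription factor that is needed to specify the oligodendrocyte lineage and is present in its cells from the precursor onwards. Acetylation of histone H3 at lysine 27 (H3K27Ac) marks enhancers and promoters in use, and H3K4me3 marks promoters, in use or poised. H3K9me3 belongs to silenced heterochromatin, and RNAPII sits at promoters and along transcribed genes.

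The Brg1 peaks of the 2 stages overlapped at every member, which the joining into regions largely fixes. In 1670 of the 1698 members (98.4%) a region consisted of 1 iOL and 1 mOL peak. The 2 peaks shared a median of 818.5 bp, and their midpoints lay a median of 98.8 bp apart. The iOL peak was the wider in 1344 members (79.2%), with medians of 1137 bp in iOL and 886 bp in mOL, and the median region was 1221 bp wide (quartiles 966 and 1514 bp). At the edges of the rule, the smallest overlaps of an iOL with a mOL peak were 162, 207 and 272 bp, and the smallest overlaps with Olig2 were 2, 40 and 94 bp. Just outside it, the 163 regions with the same Brg1 calls and no Olig2 came within 217, 515 and 561 bp of an Olig2 peak at the closest, and 11 of them lay within 1000 bp of one. Of the members, 4 lay within 1000 bp of a Brg1 OPC peak, the nearest at 151 bp, and the median distance to the nearest Brg1 OPC peak was 1792 kb.

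Olig2 was called at most members already in OPC, where Brg1 was not. An Olig2 peak of OPC met 1553 members, or 91.5% (90.0 to 92.7), where the share over all 7633 Brg1 regions was 65.3%. In iOL Olig2 met 1602 members, or 94.3% (93.1 to 95.4), beside 67.0% of all Brg1 regions. In mOL it met 559 members, or 32.9% (30.7 to 35.2), beside 17.8% of all Brg1 regions. The mOL share stands beside an Olig2 list with far fewer peaks, and how much of the drop comes from the length of that list cannot be told apart from a change in binding. Because the rule requires Olig2, the shares of members lie above those of all Brg1 regions by construction.

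Olig2 in OPC and iOL without mOL was the most frequent pattern, at 906 members (53.4%, beside 40.3% of all Brg1 regions). Olig2 at all 3 stages was found at 551 (32.4%, beside 17.1%), in iOL alone at 138 (8.13%, beside 9.05%) and in OPC alone at 95 (5.59%, beside 7.73%). All Brg1 regions include those without Olig2, so these pairs do not share a base. Among regions with Olig2 and Brg1 in iOL alone, these patterns held 60.0, 16.5, 9.38 and 13.9%, in the same order. Among those with Olig2 and Brg1 in mOL alone they held 42.0, 17.9, 26.8 and 10.2%. The other patterns held 7 members with Olig2 in iOL and mOL (beside 0.524% of all Brg1 regions) and 1 with Olig2 in OPC and mOL (beside 0.131%). No member had Olig2 in mOL alone, a pattern found at 0.0393% of all Brg1 regions. Where an Olig2 peak of the stage met a member, the distance between midpoints was measured. The median from the Brg1 iOL midpoint was 98 bp to the OPC, 109 bp to the iOL and 97.5 bp to the mOL Olig2 midpoint. Overlap with Olig2 chose the members, so short distances are in part fixed by the rule. The Brg1 iOL midpoint lay inside an Olig2 OPC peak at 1528 members (90.0%). Olig2 peaks at members were wider than the lists as a whole in OPC (median 1511 against 1312 bp) and in iOL (927 against 720 bp), and less so in mOL (815 against 764 bp).

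H3K27Ac, which the rule did not use, was called at more members at each later stage. In OPC 944 members were acetylated, or 55.6% (53.2 to 58.0), beside 37.2% of all Brg1 regions. In iOL the number was 1201, or 70.7% (68.5 to 72.9), beside 46.4% of all Brg1 regions. In mOL it was 1352, or 79.6% (77.6 to 81.5), beside 62.9% of all Brg1 regions. The 3 lists held 19130, 21589 and 35268 peaks. With each cut to its 19130 widest peaks, the shares were 55.6, 69.1 and 67.7%: the rise from OPC to iOL remained and that from iOL to mOL did not.

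**Figure D1:**
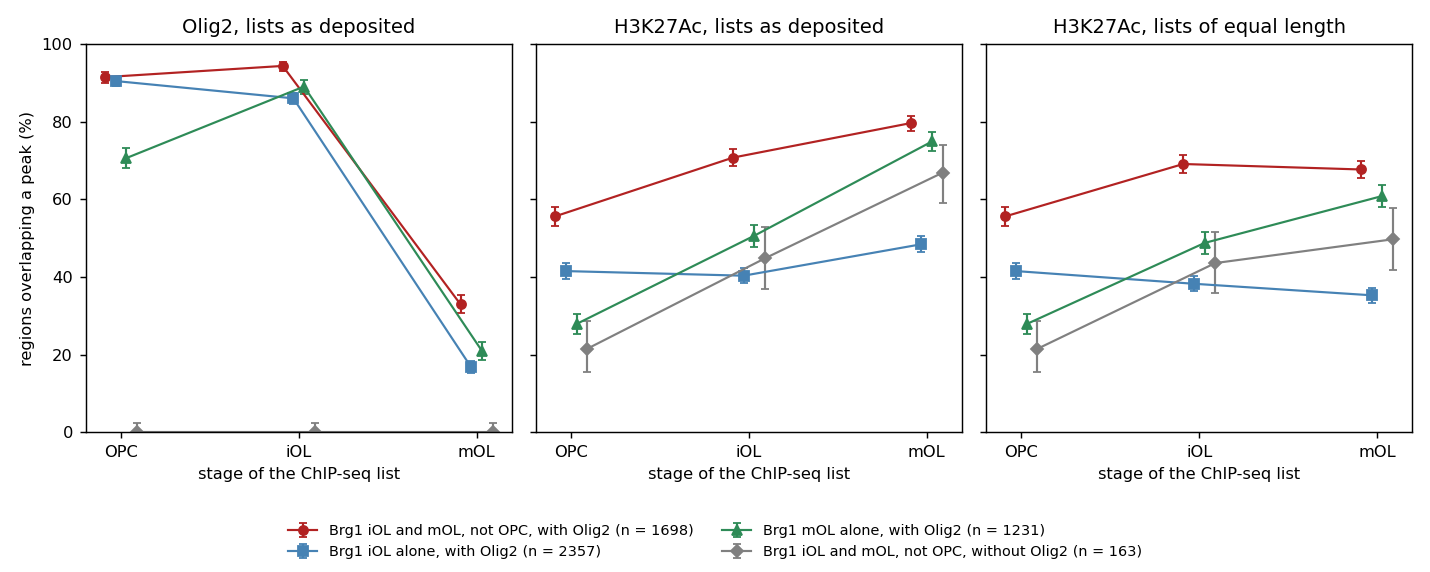
Share of regions (vertical axis, percent, with exact 95% intervals) that overlapped an Olig2 peak or an H3K27Ac peak at each stage (horizontal axis), for the members and 3 other classes of Brg1 regions; the right panel uses the 19130 widest H3K27Ac peaks of each stage. Members rose from 55.6 to 70.7 and 79.6% with H3K27Ac in the lists as deposited, and stood at 55.6, 69.1 and 67.7% in lists of equal length; the class without Olig2 is at 0 in the left panel by definition.

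Region by region, acetylation was more often added than dropped between OPC and iOL, at members as over all Brg1 regions. H3K27Ac was called in iOL and not in OPC at 331 members (19.5%, beside 15.7% of all Brg1 regions) and in OPC and not in iOL at 74 (4.36%, beside 6.54%). In lists of equal length these counts were 313 and 84, or 18.4 and 4.95% of members beside 14.5 and 7.17% of all Brg1 regions. Between iOL and mOL, 223 members (13.1%, beside 20.5% of all Brg1 regions) were acetylated in mOL alone of the 2 stages and 72 (4.24%, beside 4.04%) in iOL alone. In lists of equal length that order turned for members, with 144 and 168, or 8.48 and 9.89%, but not for all Brg1 regions, with 13.2 and 8.15%. The lists as deposited thus gave a net addition at the last step that the equal-length lists did not.

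Acetylation at all 3 stages was the most frequent pattern, at 846 members or 49.8% (47.4 to 52.2), beside 29.4% of all Brg1 regions. A further 283 (16.7%, beside 13.0%) were acetylated in iOL and mOL without OPC, and 178 (10.5%, beside 16.5%) in mOL alone. At 245 members (14.4%, beside 30.6%) no H3K27Ac peak was called at any stage. The remaining patterns were rare among members as among all Brg1 regions: 48 members in iOL alone (beside 2.70% of all Brg1 regions), 45 in OPC and mOL (4.00%), 29 in OPC alone (2.54%) and 24 in OPC and iOL without mOL (1.34%). Where all 3 stages were acetylated, the widest H3K27Ac peak at a member had a median width of 1242 bp in OPC, 1620 bp in iOL and 1946 bp in mOL. It was wider in mOL than in OPC at 684 of the 846 (80.9%) and wider in iOL than in OPC at 598 (70.7%). Over every peak of the whole lists the median widths were 745, 793 and 827 bp. A wider peak has more room to meet a region, so these medians are not on a like base. Whether the widening is particular to the members was not tested.

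H3K27Ac covered more of the members, and more of the sequence beside them, in the lists of the later stages. At the midpoint of the members an H3K27Ac peak covered 48.8% of them in OPC, 64.1% in iOL and 72.7% in mOL. At 1000 bp from the midpoint these shares were 13.7, 23.8 and 36.4%, and at 5000 bp they were 2.47, 3.50 and 6.86%. Brg1 at 1000 bp covered 6.54% of members in iOL and 3.00% in mOL, and Olig2 covered 19.3% in OPC, 4.51% in iOL and 0.471% in mOL. The number of members that lay wholly inside 1 H3K27Ac peak was 224 (13.2%) for OPC, 420 (24.7%) for iOL and 614 (36.2%) for mOL. These were fewer than 1 in 2 of the acetylated members of each stage. Olig2 of OPC covered 82.7% of members at 500 bp from the midpoint, against 39.0% for H3K27Ac of OPC and 67.4% for H3K27Ac of mOL, so that H3K27Ac of mOL covered more than Olig2 of OPC at 1000 bp but not at 500 bp. The H3K27Ac list of mOL was also the longest, and coverage was not computed with lists of equal length.

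**Figure D2:**
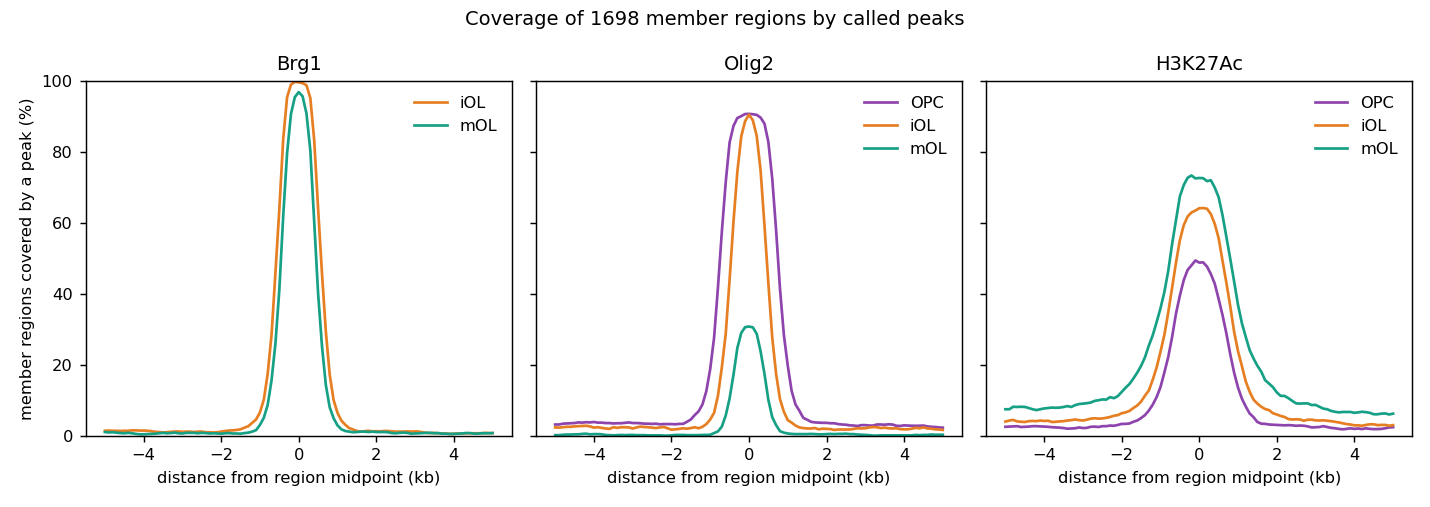
Share of the 1698 members covered by a called peak (vertical axis, percent) against distance from the member's midpoint (horizontal axis, kb), for Brg1, Olig2 and H3K27Ac, with 1 line per stage. H3K27Ac coverage at the midpoint was 48.8% in OPC, 64.1% in iOL and 72.7% in mOL, and at 1 kb it was still 36.4% in mOL.

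Most members carried no promoter mark. H3K4me3 met 41 members in OPC, or 2.41% (1.74 to 3.26), 38 in iOL, or 2.24% (1.59 to 3.06), and 106 in mOL, or 6.24% (5.14 to 7.50). The shares over all Brg1 regions were 4.15, 3.85 and 7.80%. The mOL list was the longest of the 3, with 17530 peaks against 11758 in OPC and 10467 in iOL. Of the 109 members with H3K4me3 at some stage, 63 had it in mOL alone (3.71% of members, beside 3.37% of all Brg1 regions) and 33 at all 3 stages (1.94%, beside 3.51%). The mOL H3K4me3 peak had a median width of 2014 bp at the 33 and 696 bp at the 63, where that of the whole mOL list was 950 bp. The median member lay 64.7 kb from the nearest H3K4me3 peak of any stage, and 736 members (43.3%) lay within 50 kb of one. This was not particular to the members. Among regions with Olig2, the values were 67.6 kb and 42.9% for Brg1 in iOL alone, and 61.1 kb and 44.4% for Brg1 in mOL alone. Regions with the members' Brg1 calls and no Olig2 stood at 59.2 kb and 43.6%.

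The nearer a member lay to H3K4me3, the more often it was acetylated. In OPC, H3K27Ac was called at 89.0% of the 109 members that overlapped H3K4me3, at 69.7% of the 175 within 10 kb, at 60.0% of the 452 from 10 to 50 kb and at 47.2% of the 962 farther away. The same 4 groups stood at 95.4, 85.7, 76.5 and 62.5% in iOL, and at 98.2, 86.9, 84.1 and 74.1% in mOL. Whether this order is particular to the members was not tested. Olig2 in mOL had the opposite order, with 23.9% and 24.0% in the nearer pair of groups against 34.7% in each of the others.

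H3K9me3, the mark of silenced chromatin, met 4 members in OPC (0.236%), 1 in iOL (0.0589%) and 11 in mOL (0.648%), beside 0.210, 0.0262 and 0.550% of all Brg1 regions. The 13 members with H3K9me3 at some stage included chr20:21495548-21497176, where a mOL H3K9me3 peak of 1461 bp stood beside H3K27Ac peaks of 2928, 3633 and 3598 bp in OPC, iOL and mOL.

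RNAPII met 1 member in OPC (0.0589%, beside 0.0524% of all Brg1 regions) and 31 in iOL, or 1.83% (1.24 to 2.58), beside 1.18% of all Brg1 regions. All 31 had Olig2 in iOL and H3K27Ac in both iOL and mOL, and 27 of them also had H3K27Ac in OPC. Over all members, Olig2 in iOL was at 94.3%, and H3K27Ac at 55.6, 70.7 and 79.6% in OPC, iOL and mOL. The 31 were wider, with a median of 1594 bp against 1221 bp for all members. Of them, 18 were among the 424 members whose Brg1 peaks were both at least 1055 bp wide. At those 424 the H3K27Ac shares were 82.1, 93.2 and 97.4%. The part that width plays was not tested. H3K4me3 was called at none of the stages at 24 of the 31, or 77.4% (58.9 to 90.4). Over all 1698 members that share was higher, at 93.6%. Of all 1425 RNAPII peaks of iOL, 1203, or 84.4% (82.4 to 86.3), did meet H3K4me3 of some stage. That count is of overlap with the RNAPII peak, not with a Brg1 region. The 24 lay a median of 45.0 kb from the nearest H3K4me3 peak. The RNAPII peak at the 31 members had a median width of 1208 bp, against 1047 bp for the whole list.

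The clearest gradient within the members followed the width of the Brg1 peaks, the only size the files give, since the lists hold no peak score. Members were ranked by the lesser of their iOL and mOL Brg1 widths and split into 4 quartiles (307 to 686, 687 to 849, 850 to 1054 and 1055 to 3265 bp). H3K27Ac in OPC was called at 32.6, 48.2, 59.7 and 82.1% of members from the narrowest to the widest quartile. In iOL the shares were 45.9, 65.6, 78.4 and 93.2%, and in mOL 57.6, 76.9, 86.7 and 97.4%. A wider region also has more room to overlap a peak by chance, and how much of the gradient this makes was not tested. Olig2 in iOL also went up with width, from 90.4 and 92.7 to 96.7 and 97.6%. Olig2 in OPC, at 92.0, 87.1, 92.7 and 94.1%, and in mOL, at 33.7, 29.4, 34.4 and 34.2%, showed no steady order. RNAPII in iOL was called at 3, 2, 8 and 18 members of the 4 quartiles.

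**Figure D3:**
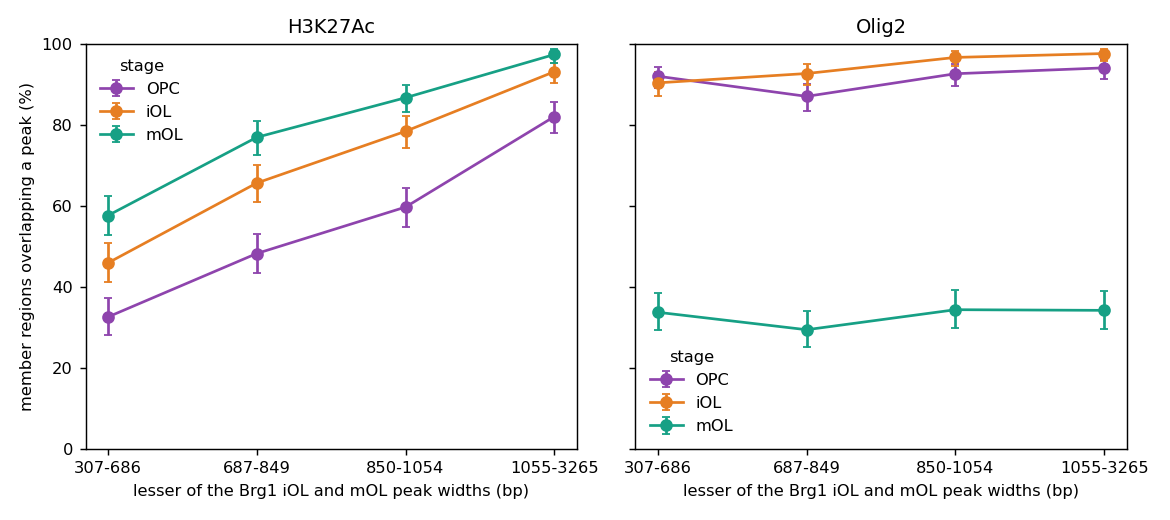
Share of members (vertical axis, percent, with exact 95% intervals) with an H3K27Ac peak (left) or an Olig2 peak (right) at each stage, by quartile of the lesser Brg1 peak width (horizontal axis, bp; 422 to 427 members each). H3K27Ac in OPC went from 32.6% in the narrowest to 82.1% in the widest quartile, while Olig2 in mOL stayed between 29.4 and 34.4%.

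Members with Olig2 at all 3 stages were less often acetylated than those with Olig2 in OPC and iOL alone. This split was chosen after its values were seen. The shares with H3K27Ac were 49.4% against 63.4% in OPC, a difference of -14.0 percentage points (-19.2 to -8.75). They were 67.7% against 74.7% in iOL, a difference of -7.03 points (-11.9 to -2.25), and 74.2% against 82.9% in mOL, a difference of -8.66 points (-13.1 to -4.33). The regions of the 2 sets were alike in width, with medians of 1233 and 1242.5 bp. In mOL the difference was -17.4 points (-27.4 to -6.98) in the narrowest quartile of region width and -1.10 points (-6.39 to 2.94) in the widest, where nearly all members were acetylated. The same split gave differences of -21.2, -8.91 and -15.6 points in OPC, iOL and mOL among regions with Brg1 in iOL alone, and of -27.3, -22.1 and -13.5 points among those with Brg1 in mOL alone, so the direction was not particular to the members.

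The patterns at the edges of the split differed in their own ways. The 95 members with Olig2 in OPC alone had H3K27Ac at 36.8% in OPC and 43.2% in iOL, but at 70.5% in mOL. The 138 with Olig2 in iOL alone had it at 45.7% in OPC, 76.1% in iOL and 85.5% in mOL.

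**Figure D4:**
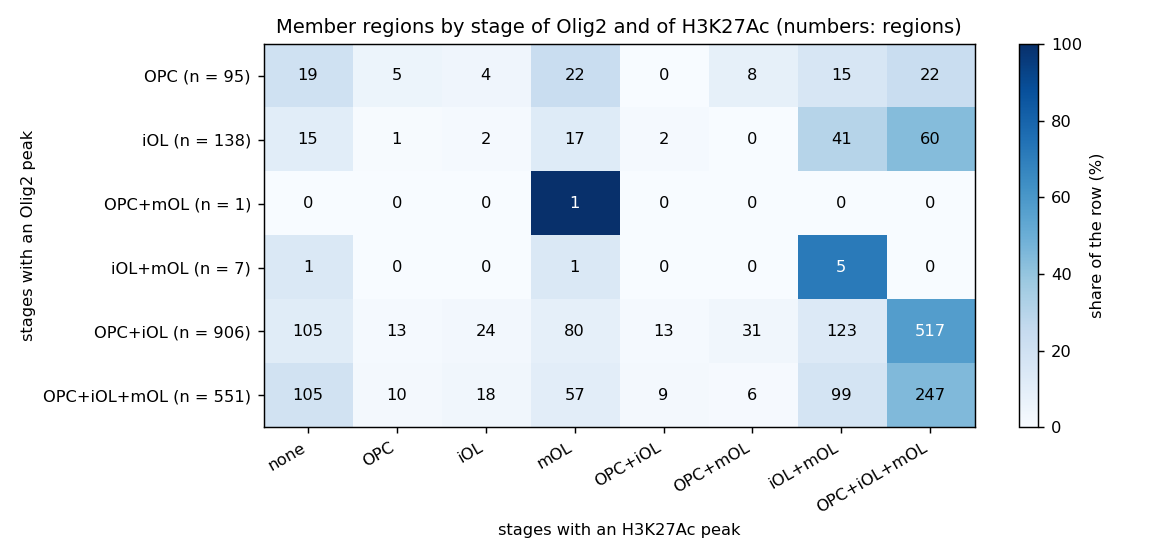
Number of members (figures in the cells) by the stages with an Olig2 peak (rows) and the stages with an H3K27Ac peak (columns); the colour is the share of the row in percent. The fullest cell holds 517 members with Olig2 in OPC and iOL and H3K27Ac at all 3 stages, and 105 of 551 members with Olig2 at all 3 stages had no H3K27Ac peak.

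Against regions with Brg1 in iOL alone and Olig2 (2357 regions), the members were more often acetylated. Those regions had H3K27Ac at 41.5, 40.3 and 48.4% in OPC, iOL and mOL. The members' shares were higher by 14.1 percentage points (11.0 to 17.2) in OPC. At the later stages they were higher by 30.4 points (27.4 to 33.3) in iOL and by 31.2 points (28.4 to 33.9) in mOL. Members are wider, and peaks of the same iOL library can be compared on width directly: the iOL Brg1 peak had a median of 1137 bp at members and 954 bp at the other class. Within quartiles of that width the differences were 4.94, 22.4 and 22.7 points, and within quartiles of the width of the whole region 0.807, 18.5 and 18.9 points. The OPC difference thus shrank most at like width, and those in iOL and mOL stayed above 18 points. In lists of equal length the iOL-alone class stood at 41.5, 38.2 and 35.3%, so that its share moved down with the stages where that of the members moved up from OPC.

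Against regions with Brg1 in mOL alone and Olig2 (1231 regions), the gap was largest in OPC and small in mOL. Those regions had H3K27Ac at 27.9, 50.6 and 74.9% in OPC, iOL and mOL, and the members' shares were higher by 27.7 points (24.2 to 31.1), 20.1 (16.6 to 23.6) and 4.72 (1.66 to 7.83). Within quartiles of the width of the mOL Brg1 peak the differences were 24.0, 15.6 and 1.51 points. Within quartiles of the whole region's width they were 7.50, -2.33 and -8.64 points. The second of these sets members, whose region is mostly the wider iOL peak, beside regions that consist of a mOL peak, and the sign in iOL and mOL turned with the choice. The difference in OPC was above 0 under both.

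Against the 163 regions with the same Brg1 calls and no Olig2, the members were again more often acetylated. The class without Olig2 had H3K27Ac at 21.5, 44.8 and 66.9% in OPC, iOL and mOL. The differences were 34.1 points (26.8 to 40.2), 25.9 (18.0 to 33.7) and 12.8 (5.70 to 20.5). Within quartiles of the iOL Brg1 peak width they were 27.8, 13.5 and 2.41 points, and the mOL difference was thus small at like width. H3K4me3 went the other way, at 7.36% of the class without Olig2 in OPC against 2.41% of members, a difference of -4.95 points (-10.1 to -1.73). In iOL that difference was -5.12 points (-10.2 to -1.92), and in mOL -2.96 points (-8.49 to 0.801).

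Olig2 itself differed between the classes that carried it, as a description of the readout that chose them. Olig2 in mOL was called at 32.9% of members, 16.7% of regions with Brg1 in iOL alone and 21.0% of those with Brg1 in mOL alone. Olig2 in OPC was called at 91.5, 90.5 and 70.6% of the same classes, so that regions with Brg1 in mOL alone had it least often. The comparison of RNAPII was not planned and was added after seeing the data. It rests on 31 members, 14 regions of the iOL-alone class and 20 of the mOL-alone class. RNAPII of iOL was called at 1.83% of members and 0.594% of the iOL-alone class, a difference of 1.23 points (0.562 to 2.02). In the mOL-alone class it was called at 1.62%, a difference of 0.201 points (-0.822 to 1.15). With the middle 200 bp of each region the first of these differences was 0.787 points (0.207 to 1.48), and within quartiles of the Brg1 iOL peak width it was 1.08 points.

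The same comparison can be read as the share of iOL sites at which Brg1 was called again in mOL. Of the 4055 regions with Brg1 in iOL but not in OPC, and with Olig2, 41.9% (40.3 to 43.4) also had Brg1 in mOL. The share was 64.8% (60.1 to 69.2) of the 437 acetylated in iOL and mOL without OPC, and 57.3% (54.7 to 59.8) of the 1477 acetylated at all 3 stages. It was 21.0% (18.7 to 23.4) of the 1169 never acetylated and 18.6% (12.8 to 25.6) of the 156 acetylated in OPC alone. The other patterns lay between, at 47.3% for mOL alone, 31.8% for iOL alone, 27.9% for OPC and iOL, and 22.2% for OPC and mOL. Width was not held fixed in these shares. Never-acetylated members had a median width of 918 bp, against 1417.5 bp for those acetylated at all 3 stages. By Olig2, the share was 58.7% of the 939 with Olig2 at all 3 stages and 39.1% of the 2320 with Olig2 in OPC and iOL alone. That is a description only, since Brg1 and Olig2 calls chose the members.

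A few members show these patterns at single sites, on genome build rn4, and are given by position because no gene annotation of that build was used. The first by the lesser Brg1 width was chr1:135265305-135269271, with Brg1 peaks of 3795 bp in iOL and 3265 bp in mOL. It had Olig2 peaks of 3430 bp in OPC and 1933 bp in iOL, none in mOL, and H3K27Ac peaks of 5761, 5054 and 5261 bp in OPC, iOL and mOL. It lay 4.51 kb from the nearest H3K4me3 peak. All of the 5 first members by this rank lacked Olig2 in mOL and had H3K27Ac at all 3 stages. Neither sets them apart from other wide members. In the widest quartile by this rank, Olig2 in mOL was called at 34.2%, beside 32.9% of all members. H3K27Ac was called there at 82.1, 93.2 and 97.4% in OPC, iOL and mOL.

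At chr11:58820689-58823056, also among those 5, the H3K27Ac peak was 2276 bp wide in OPC, 3176 bp in iOL and 5629 bp in mOL, an RNAPII peak of 1011 bp was called in iOL, and an H3K4me3 peak of 640 bp was called in mOL alone. A member far from any promoter mark, chr20:18622645-18624601, had an RNAPII peak of 979 bp in iOL at 182 kb from the nearest H3K4me3 peak, with Olig2 and H3K27Ac at all 3 stages. Its H3K27Ac peak was 1642 bp wide in OPC, 1590 bp in iOL and 4269 bp in mOL.

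Of the 247 members with Olig2 and H3K27Ac at all 3 stages, chr6:74300260-74302487 had Olig2 peaks of 2237, 1634 and 1287 bp and H3K27Ac peaks of 1669, 2412 and 2586 bp, and lay 171 kb from H3K4me3. Acetylation in mOL alone was found at chr5:50752559-50754149, where Olig2 peaks of 1865, 1046 and 1231 bp were called at the 3 stages and the H3K27Ac peak of mOL was 748 bp wide. The reverse, H3K27Ac in OPC and iOL without mOL, was found at chr9:81332223-81333971, with H3K27Ac peaks of 1109 and 1570 bp and Olig2 peaks of 2229, 1628 and 1358 bp.

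The 245 members with no H3K27Ac at any stage were narrow and far from H3K4me3, as were the 178 acetylated in mOL alone. Median widths were 918 bp for the 245, 1027.5 bp for the 178 and 1417.5 bp for the 846 acetylated at all 3 stages. The median distance to the nearest H3K4me3 peak was 118, 120 and 41.0 kb in the same order. The 245 met no H3K27Ac peak by definition. They lay a median of 51.0 kb from the nearest, and 8 of them lay within 1000 bp of one. Olig2 was called at 93.5% of them in OPC, 92.2% in iOL and 43.3% in mOL, the last beside 29.2% of the 846. Counting all 3 histone marks, 242 members, or 14.3% (12.6 to 16.0), had none at any stage, against 38.5% of regions with Brg1 in iOL alone and 22.1% of those with Brg1 in mOL alone. The member chr3:122506763-122508002 is 1 of these: Brg1 peaks of 1196 bp in iOL and 1240 bp in mOL stood with Olig2 peaks of 2376, 1716 and 884 bp and no mark, 41.9 kb from the nearest H3K27Ac peak.

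At the other end, 33 members had H3K4me3 at all 3 stages. The first of them, chr2:120955669-120958793, overlapped H3K27Ac peaks of 8025, 8189 and 14196 bp and H3K4me3 peaks of 4608, 4868 and 6698 bp. It had Olig2 in iOL alone, with a peak of 1966 bp.

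Members were sparse, at 0.428 to 0.935 per Mb on the autosomes. When members up to 12500 bp apart were joined, 1577 of the 1698 stood alone, and there were 57 pairs, 1 group of 3 and 1 group of 4. Whether this is more or less grouping than their density gives was not tested. The group of 4, chr2:213978848-214000226, spanned 21.4 kb at 49.6 kb from the nearest H3K4me3 peak. All 4 of its members had Olig2 in OPC, 3 in iOL and 1 in mOL, and H3K27Ac was called at 3 in OPC, 3 in iOL and 4 in mOL. The group of 3, chr17:36976250-36987922, had Olig2 in OPC and iOL and H3K27Ac at all 3 stages at every member.

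**Figure D5:**
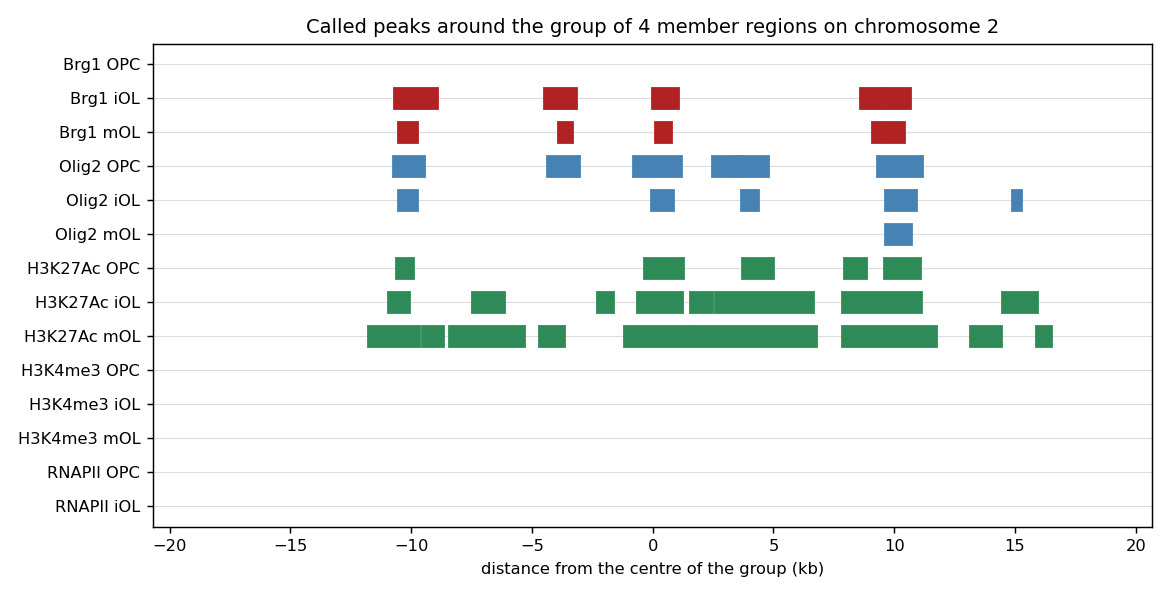
Called peaks of each list (rows) around the group of 4 members on chromosome 2 (horizontal axis, kb from the centre of the group). Brg1 appears in iOL and mOL at 4 places and in OPC at none, Olig2 in mOL at 1 of them, and the H3K27Ac peaks of mOL are the longest of the 3 stages.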

How the data were processed

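The deposited values were positions: each list held 3 columns (chromosome, start and end of each peak, taken as the unit other), with no header and no score. MACS 1.4.0 and build rn4 are named per the submitters' processing notes, and fragment libraries were made for SOLiD sequencing, per the labels' protocols. The aligner, the calling threshold, any control library, filters and pooling: not given in the sources used here. Without read numbers the depth is unknown, and a deeper library or looser threshold lengthens a list and raises every share.

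Each library was grouped by its title. Starts were written 1-based. Overlap meant at least 1 bp. Regions were classed by their Brg1 and Olig2 calls, and shares, widths and distances were computed from the authors' peaks as deposited. Where several peaks of a list met a member, the widest was taken. Widths at members and over whole lists are therefore not on a like base. The members and lists were chosen with earlier results of these data known. Members named were the first by the lesser of their Brg1 iOL and mOL widths, 5 over all and 3 in each of 7 sets by marks, Olig2 and RNAPII, with the 5 largest groups, and the text gives a selection. Alternatives were 50% overlap, the middle 200 bp, peaks within 1000 bp, no unplaced sequence, H3K27Ac lists of equal length and width quartiles. Planned comparisons with genes and motifs were left out, since the reference tables at hand are of assembly GRCr8. The mouse RNA profiles of the design were not analysed here.

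Python 3.11.15, numpy 2.4.6, pandas 2.3.3, scipy 1.17.1 and matplotlib 3.10.9 were used. The overlap code was tested on 12 simulated sets, with a largest error of 0 percentage points, and its counts equalled those of bedtools 2.31.1 for 17 lists.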

Additional observations from a re-analysis of the deposited data

How the results depend on the processing

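No paired analysis was possible because each target and stage had 1 library, and for the same reason no replicate could be left out. Of 171 recomputed values over 28 results, 138 were counted as unchanged, 31 moved and 2 reversed. Unchanged meant within the error of the first value or, for the number of members, within 1.5 times under each alternative run. Some of the 138 could not have moved and are no check. No member lay on unplaced sequence, so leaving it out kept every member share. The OPC list of H3K27Ac held 19130 peaks as deposited, so lists of equal length repeated its values. The tally is thus no measure of how stable the results are.

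With the middle 200 bp of each member, Olig2 in iOL was called at 92.3%, H3K27Ac at 52.7, 68.1 and 77.5% in OPC, iOL and mOL, H3K4me3 in mOL at 4.95%, H3K9me3 at 0, 0 and 0.177%, and RNAPII in OPC at 0%. With 50% overlap, H3K9me3 was at 0, 0 and 0.118% and RNAPII in OPC at 0%. Within 1000 bp, H3K4me3 in OPC was at 3.42% and H3K9me3 at 0.942% in OPC and 1.88% in mOL. Equal-length lists gave 67.7% for H3K27Ac in mOL.

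Within quartiles of region width, the H3K27Ac differences in OPC, iOL and mOL were 0.807, 18.5 and 18.9 points against Brg1 in iOL alone and 7.50, -2.33 and -8.64 against Brg1 in mOL alone, the last pair reversed. Against the class without Olig2 they were 15.4 in iOL and 2.47 in mOL. Within quartiles of the Brg1 peak width of the shared stage, chosen after seeing the data, they were 4.94, 22.4 and 22.7 against iOL alone, 24.0, 15.6 and 1.51 against mOL alone, and 13.5 in iOL and 2.41 in mOL against the class without Olig2. The cause of these changes was not tested beyond the width itself. The split of members by Olig2 kept its direction under 5 alternatives added after seeing the data. The differences ran from -15.8 to -13.1 points for OPC, from -7.41 to -6.43 for iOL and from -11.4 to -8.26 for mOL.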

Other observations

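When H3K27Ac peaks up to 12500 bp apart were joined, the OPC list gave 11194 domains, the iOL list 12042 and the mOL list 17186. Of these, 906 (8.09%), 1144 (9.50%) and 1277 (7.43%) held a member. Domains with a member were longer than those without, with medians of 1.78 against 1.31 kb in OPC, 2.07 against 1.39 kb in iOL and 3.63 against 1.61 kb in mOL. A longer domain has more room to hold a member, and the part this plays was not tested. A domain held 2 or more members in 36, 56 and 68 cases, and at most 4.

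Members were found on every autosome and on the X chromosome. Per Mb, the X chromosome held 0.0560 members and 0.436 Brg1 regions. Chromosome 12, the autosome with the fewest members per Mb, held 0.428 members and 2.03 Brg1 regions. The cause of the sparser X was not tested. On the autosomes they made up between 17.9 and 27.4% of the Brg1 regions of a chromosome. On the X chromosome they were 9 of 70 Brg1 regions, or 12.9% (6.05 to 23.0), against 22.4% (21.4 to 23.3) on the autosomes, a difference of -9.50 percentage points (-15.5 to 0.355) whose interval includes 0. A Brg1 region that was no member lay within 12500 bp of 291 members (17.1%), and 31 members had a region with Brg1 in OPC that near. Whether these shares are particular to the members was not tested.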
